A study of Mus musculus with 6 samples.

Results

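Lysosomal genes were followed in mouse organoids, self-organising epithelial cultures, in which the endodermal transcription factor GATA6 had been knocked out. They comprised 47 genes of the 54418 rows of the deposited table: membrane proteins of the lysosome, subunits of its proton pump, hydrolases, autophagy proteins and the factors that regulate them. The 47 genes were listed by function. Lamp2 headed the list because its large increase in this comparison was already known. Its values are therefore a description with no test, and the question was whether Lamp2 moved alone or with the organelle. All 47 were found by symbol, and 44 passed the filter on low counts among 14714 genes tested.

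The study had 2 groups of 3 libraries, GATA6KO and Control, both from organoids that the labels call AKP without spelling out the alleles. Both groups shared that AKP background, and the labels name no agent, dose or time. The sources used here do not give the position and kind of the Gata6 lesion, the number of clones, or whether the replicates were separate cultures. A p-value here sets the difference against the spread of these 6 libraries alone, and that spread may be technical. In bulk RNA, fewer cells of a type and less RNA per cell cannot be told apart.

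Lysosomes are acidic compartments that degrade material delivered by endocytosis and autophagy. Heavily glycosylated proteins, LAMP1 and LAMP2 above all, cover their limiting membrane, a vacuolar proton pump (V-ATPase) acidifies the lumen, and hydrolases there digest proteins, glycans and lipids. Many of these genes are known targets of the related factors TFEB, TFE3 and MITF, which bind the sequence CACGTG within a longer element. In the intestinal epithelium, lysosomes serve digestion of absorbed material, turnover of membrane proteins and defence.

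Total estimated counts ran from 29208525 to 29674562 in GATA6KO and from 22973245 to 31328415 in Control. Genes of the mitochondrial genome held 2.07%, 2.84% and 2.81% of counts in GATA6KO and 1.86%, 1.88% and 1.85% in Control, so that their share was higher in every GATA6KO library. Gata6 itself was lower in every GATA6KO library, at 14.3, 16.0 and 8.24 CPM (counts per 1000000 of a library, scaled between libraries) against 25.3, 23.2 and 28.01 CPM in Control. Genes of chromosome 14 stood at a median log2 ratio to the Control mean of -0.09, -0.90 and 0.04 in GATA6KO replicates 1 to 3, and 1 lysosomal gene (Ctsb) lies there. Among intestinal epithelial markers all 11 were expressed enough to test, and they summed to 7071 to 8704 CPM in GATA6KO and 10970 to 11900 CPM in Control. Of these 11, edgeR called 3 (Cdh1, Krt8 and Krt18) lower (27.3%, beside 12.4% of all genes tested), and the other 8 were not called. DESeq2 called 7 (63.6%, beside 22% of all genes tested). By edgeR, 72.7% of the 11 had an unadjusted p under 0.05, beside 31.7% of all genes tested. The part of either shift in the results that follow was not tested. Fibroblast and endothelial markers (8 and 5 genes) summed to less than 1 CPM in every library. In all, 12.4% of genes tested passed the threshold in this comparison (edgeR's quasi-likelihood test, Benjamini-Hochberg adjusted p under 0.05), 6.92% higher and 5.47% lower.

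Lamp2 (ENSMUSG00000016534, chromosome X, mm10 positions 38401357 to 38456454, minus strand) encodes a membrane glycoprotein of the lysosome needed for fusion with autophagosomes, and its A form is the receptor of chaperone-mediated autophagy. It measured 712, 810 and 937 CPM in GATA6KO replicates 1 to 3, against 151, 165 and 163 CPM in Control replicates 1 to 3. The groups lay far apart, and the lowest GATA6KO library was above every Control library. The underlying counts were 21309, 24710 and 28104 in GATA6KO and 3453, 4766 and 4880 in Control. Mean levels were 820 ± 113 CPM in GATA6KO and 160 ± 7.43 CPM in Control (SD, n = 3 each), so that GATA6KO stood at 513% of Control (log2 fold change 2.36, SE 0.13). The files give 1 value per gene, so the A, B and C forms of Lamp2 cannot be told apart.

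Among all 14714 genes tested, the log2 fold change of Lamp2 ranked 327 from the top, since many genes near 0 in Control had larger ratios. Lamp2 ranked 1 among the 2438 genes with at least 100 CPM in Control, a minimum not planned beforehand. Its share of the summed CPM of all 47 lysosomal genes was 15.1%, 17.7% and 22.02% in GATA6KO replicates 1 to 3, against 3.89%, 4.27% and 3.93% in Control replicates 1 to 3. Per kilobase of merged exons, Lamp2 stood at 85.9 CPM in GATA6KO, rank 4 of the 44 tested, and at 16.7 CPM in Control, rank 21.

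**Figure D1:**
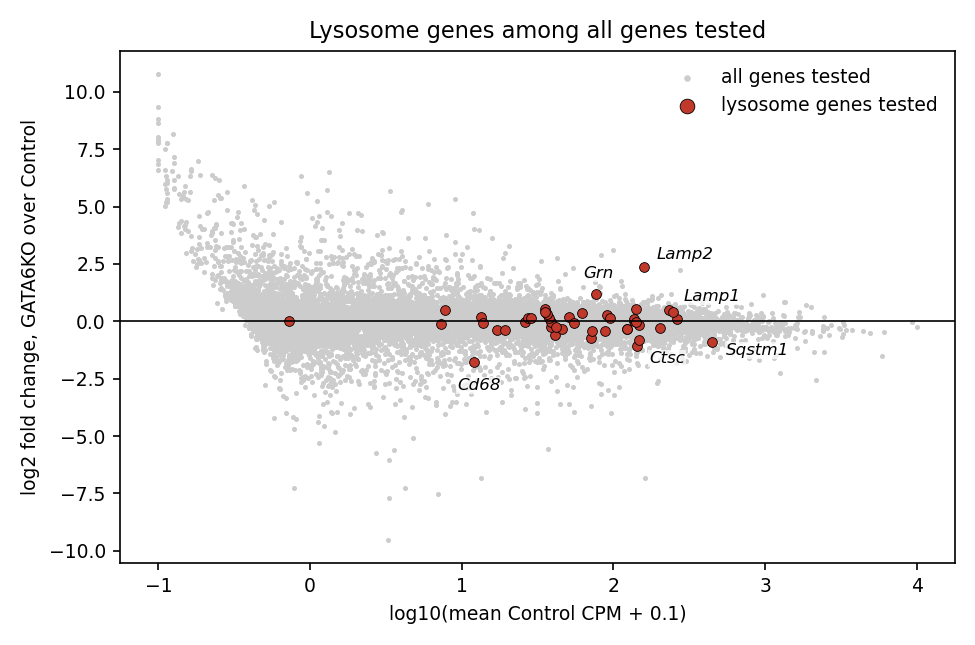
Log2 fold change (GATA6KO over Control) against log10 of the mean Control level (CPM plus 0.1) for all 14714 genes tested (grey) and the 44 lysosomal genes tested (red). Lamp2 stands at a log2 fold change of 2.36, above every other red point, and 33 of the other 43 lie within 0.5 of 0.

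The rest of the organelle did not follow as a whole. Of the 43 other lysosomal genes tested, 2 rose (Lamp1 and Grn), 4 fell (Cd68, Ctsc, Atp6v0a1 and Sqstm1) and 37 did not pass the threshold. The 6 called genes were 14% of the 43, beside 12.4% of all genes tested. DESeq2 called 9 of the 43 (20.9%, beside 22% of all genes tested) and limma-voom 6 (14%, beside 12.1%). All 43 reached the filter's count minimum in at least 1 library of each group. For Ctss, with 9, 5 and 42 counts in GATA6KO replicates 1 to 3, replicate 3 alone of that group did so. The median log2 fold change of the 43 was -0.03, with a range of -1.79 to 1.17, and that of all genes tested was 0.02. In 33 of the 43 (76.7%) the log2 fold change was smaller than 0.5 in either direction, as it was in 67.9% of all genes tested. Summed over the 46 genes other than Lamp2, the level was 3320 to 4006 CPM in GATA6KO and 3703 to 3978 CPM in Control. The GATA6KO libraries thus lay on both sides of the Control range, with a mean of 97.2% of the Control mean.

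**Figure D2:**
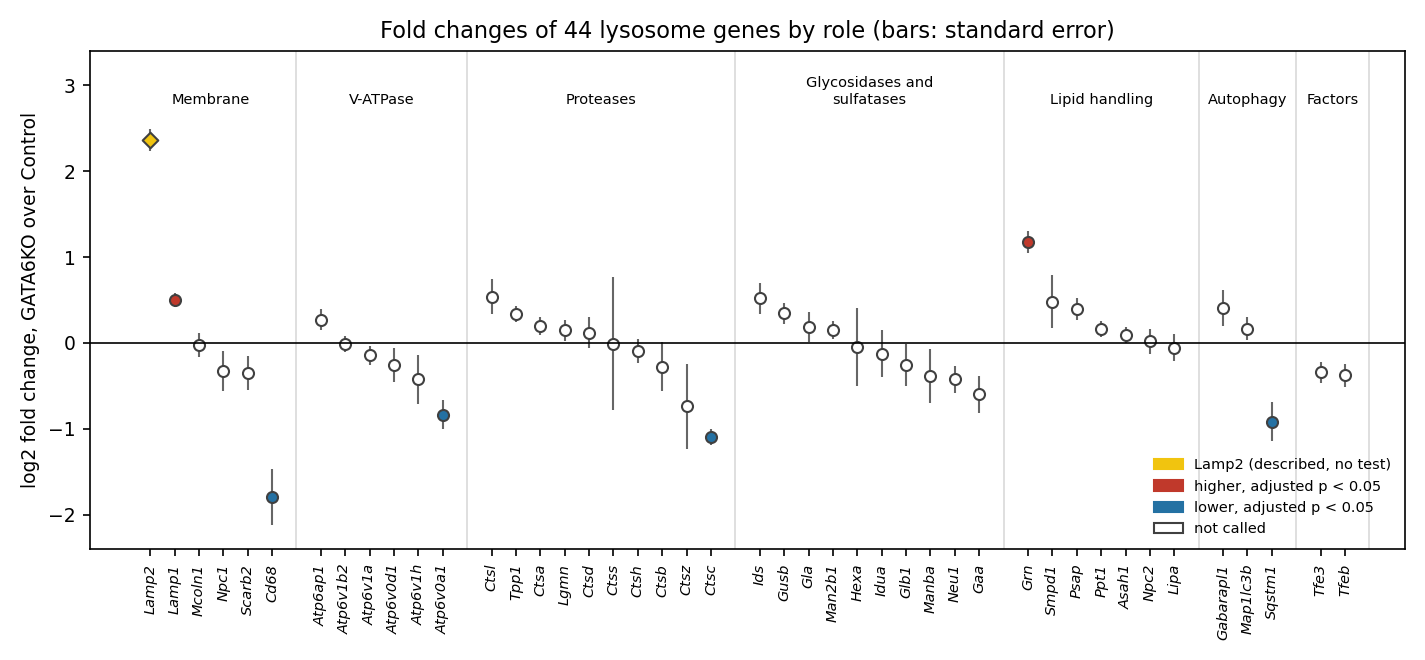
Log2 fold change (GATA6KO over Control) of the 44 lysosomal genes tested, grouped by role, with bars of 1 standard error. Red and blue mark genes higher and lower at an adjusted p under 0.05, open circles genes that did not pass, and the yellow diamond Lamp2; 2 genes are red and 4 are blue.

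Groups that did not overlap were found for 18 of the 43 genes (41.9%), 9 higher and 9 lower, beside 40.8% of all genes tested (20.3% higher and 20.5% lower). GATA6KO libraries also differed more from each other than Control libraries did. The median coefficient of variation of the 43 genes was 20.8% in GATA6KO and 6.04% in Control, against 19.5% and 6.63% for all genes tested. GATA6KO replicate 3 was the lowest of its group in 22 of the 44 genes, Lamp2 not among them, and the highest in 7. Control libraries were also uneven, with replicate 2 the lowest in 23 and replicate 3 the highest in 28. The same counts over all genes tested were not made. Without Lamp2, the median log2 ratio to the Control mean was 0.11, -0.08 and -0.11 in GATA6KO replicates 1 to 3.

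**Figure D3:**
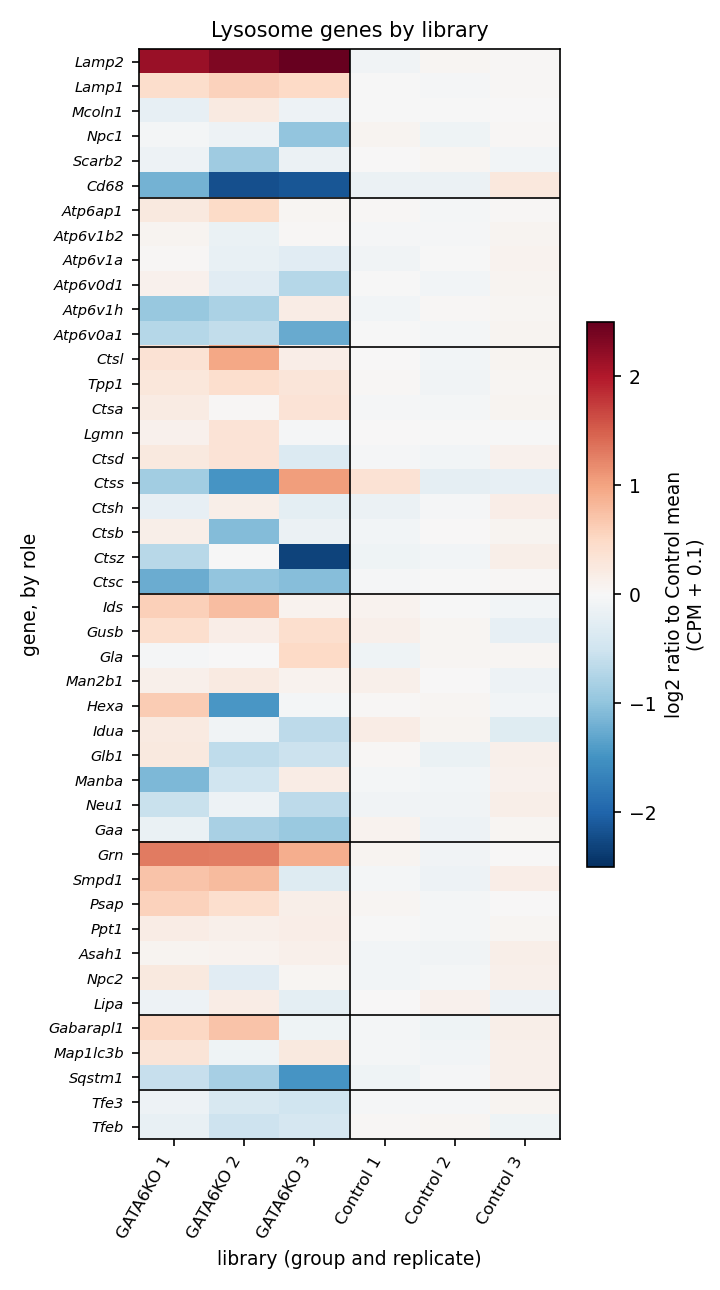
Log2 ratio of each library's CPM to the Control mean (0.1 CPM added) for the 44 lysosomal genes tested, by role from membrane proteins at the top to transcription factors at the bottom. Lamp2 is dark red in all 3 GATA6KO libraries, and Ctsz, Hexa and Ctsb are blue mainly in a single GATA6KO library.

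Membrane proteins split. Lamp1 (ENSMUSG00000031447, chromosome 8, 13159161 to 13175338), the closest relative of Lamp2 and a structural glycoprotein of the same membrane, rose. It measured 315, 345 and 329 CPM in GATA6KO and 233, 229 and 237 CPM in Control, without overlap. On the log2 scale it rose by 0.50 (SE 0.08, edgeR adjusted p = 0.0134). The ratio of Lamp2 to Lamp1 counts was 2.26, 2.35 and 2.85 in GATA6KO replicates 1 to 3 and 0.650, 0.721 and 0.688 in Control replicates 1 to 3, uncorrected for length. The call on Lamp1 was lost when Control replicate 1, 2 or 3 was left out (edgeR adjusted p = 0.0817, 0.108 and 0.0955). Over the whole table, these steps kept 256, 228 and 201 of the 1018 higher calls. They kept 164, 156 and 130 of the 805 lower calls.

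Cd68 (ENSMUSG00000018774, chromosome 11, 69664213 to 69666153), a LAMP family glycoprotein best known from macrophages, fell. It measured 5.15, 2.52 and 2.60 CPM in GATA6KO and 10.7, 10.7 and 14.2 CPM in Control. Every GATA6KO library lay below every Control library, with a log2 fold change of -1.79 (SE 0.33, edgeR adjusted p = 0.0190). That call too was lost on leaving out any 1 Control library, with edgeR adjusted p of 0.0724, 0.0718 and 0.0958 without replicates 1, 2 and 3. Of 16 macrophage markers, 2 (Cd14 and Mrc1) were expressed enough to test, and neither was called by edgeR or limma-voom. DESeq2 called 1 of the 2, beside 22% of all genes tested. By edgeR, 1 of the 2 had an unadjusted p under 0.05, beside 31.7% of all genes tested. Adgre1 had 4, 5 and 0 counts in GATA6KO and 0, 0 and 1 in Control, and C1qa, C1qb, C1qc and Tyrobp were at 0 in all 6 libraries. The 16 markers summed to 29.1 to 53.8 CPM in GATA6KO and 38.7 to 45.2 CPM in Control.

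The remaining membrane proteins did not pass the threshold. Scarb2, the receptor that carries glucocerebrosidase to lysosomes, stood at 96.8 ± 26.4 CPM in GATA6KO and 123 ± 5.68 CPM in Control (SD, n = 3 each). Npc1, the cholesterol exporter, lies on chromosome 18 like Gata6. It measured 119, 113 and 62.1 CPM in GATA6KO and 129, 115 and 126 CPM in Control (log2 fold change -0.33, edgeR adjusted p = 0.378). Mcoln1, a calcium channel of the lysosome, stood at 25.3 ± 4.23 CPM in GATA6KO and 25.8 ± 0.146 CPM in Control (SD, n = 3 each; log2 fold change -0.03). Lamp3, a LAMP known from human dendritic cells, had 1 count over all 6 libraries and was not tested.

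The V-ATPase list held 1 called gene of 6 (16.7%, beside 12.4% of all genes tested). Atp6v0a1 (ENSMUSG00000019302, chromosome 11, 101009452 to 101063719), a membrane-spanning a subunit of the pump, fell to 89.9, 96.4 and 61.1 CPM in GATA6KO, against 146, 141 and 154 CPM in Control. The groups did not overlap, at a log2 fold change of -0.83 (SE 0.17, edgeR adjusted p = 0.0275). Leaving out Control replicate 1, 2 or 3 ended the call (edgeR adjusted p = 0.104, 0.0951 and 0.123). Atp6v1a, the catalytic subunit that hydrolyses ATP, measured 150, 128 and 120 CPM in GATA6KO and 137, 146 and 156 CPM in Control. Its groups overlapped (log2 fold change -0.14, edgeR adjusted p = 0.420). Atp6v1b2, the other nucleotide-binding subunit, had a log2 fold change of -0.01. The accessory subunit Atp6ap1 (0.27), the connecting subunit Atp6v0d1 (-0.26) and the regulatory subunit Atp6v1h (-0.42) did not pass either. Atp6v1h stood at 37.2 and 41.7 CPM in GATA6KO replicates 1 and 2 but at 81.4 CPM in replicate 3, against 68.0 to 74.0 CPM in Control.

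Among lysosomal proteases Ctsc was the 1 called gene of 10 tested (10%, beside 12.4% of all genes tested). Ctsc (ENSMUSG00000030560, chromosome 7, 88278085 to 88310888) encodes cathepsin C, a dipeptidyl peptidase that activates serine proteases of immune granules. It fell to 60.3, 71.9 and 67.8 CPM in GATA6KO, against 140, 141 and 145 CPM in Control. All GATA6KO libraries lay well below the Control libraries, at 46.9% of the Control mean (log2 fold change -1.09, SE 0.09, edgeR adjusted p = 0.00201). Ctsc was called in each of the 14 alternative analyses.

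Ctsd, the aspartic protease of the list and its most counted protease, measured 310, 332 and 206 CPM in GATA6KO and 254, 248 and 279 CPM in Control. GATA6KO lay on both sides of Control (log2 fold change 0.12, edgeR adjusted p = 0.694). Ctsl, a broad cysteine protease, measured 181, 276 and 160 CPM in GATA6KO and 142, 135 and 148 CPM in Control (log2 fold change 0.54, edgeR adjusted p = 0.128). Its groups did not overlap but the GATA6KO libraries were widely spread. For Ctsb, another cysteine cathepsin and the gene on chromosome 14, the levels were 223, 95.8 and 182 CPM in GATA6KO and 192, 204 and 212 CPM in Control. The low value is that of GATA6KO replicate 2, whose chromosome 14 genes were low as given above, and the part of that in the value was not tested. Ctsz, a carboxypeptidase, had its low value in GATA6KO replicate 3, with 43.9, 70.5 and 14.3 CPM in GATA6KO and 66.6, 68.4 and 79.1 CPM in Control.

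Tpp1, a tripeptidyl peptidase, stood at 45.7 ± 2.25 CPM in GATA6KO and 36.3 ± 1.77 CPM in Control (SD, n = 3 each; log2 fold change 0.33). It missed the threshold (edgeR adjusted p = 0.0603) and passed with DESeq2 (adjusted p = 0.0142). Ctsa, Ctsh and Lgmn had log2 fold changes of 0.20, -0.09 and 0.15. Ctss, a cysteine cathepsin of antigen-presenting cells, was near the detection limit at 0.622 CPM in GATA6KO and 0.629 CPM in Control. Ctsf had 7, 2 and 28 counts in GATA6KO and 5, 2 and 4 counts in Control and was not tested.

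The 10 genes for glycan-degrading enzymes held no call by edgeR, with 4 at an unadjusted p under 0.05 (40%, beside 31.7% of all genes tested), 1 called by DESeq2 and 0 by limma-voom. Their log2 fold changes ran from -0.60 (Gaa, acid alpha-glucosidase) to 0.52 (Ids, iduronate sulfatase), 4 above 0 and 6 below. Neu1, a sialidase and the most counted of them over all 6 libraries, measured 60.3, 81.5 and 55.9 CPM in GATA6KO and 83.6, 83.6 and 98.1 CPM in Control. Its groups did not overlap (log2 fold change -0.42, edgeR adjusted p = 0.127). Gaa measured 36.6, 23.2 and 21.5 CPM in GATA6KO and 43.4, 37.6 and 42.3 CPM in Control, again without overlap (edgeR adjusted p = 0.111). It was the gene that DESeq2 called (adjusted p = 0.0470).

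Ids measured 53.2, 60.5 and 37.6 CPM in GATA6KO and 37.3, 34.7 and 33.5 CPM in Control. Gusb, beta-glucuronidase, measured 82.7, 69.1 and 82.3 CPM in GATA6KO and 67.4, 63.8 and 53.3 CPM in Control. Both had higher values in every GATA6KO library and missed the threshold (edgeR adjusted p = 0.102 for Ids and 0.118 for Gusb). Hexa, a subunit of beta-hexosaminidase, varied from library to library, with 60.8, 14.2 and 37.8 CPM in GATA6KO and 39.7, 39.97 and 37.0 CPM in Control. Gla, Glb1, Idua, Man2b1 and Manba had overlapping groups and log2 fold changes between -0.39 (Manba) and 0.19 (Gla).

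Of the 7 genes that handle lipids or activate lipid hydrolysis, Grn rose and the other 6 were not called (14.3% called, beside 12.4% of all genes tested). Grn (ENSMUSG00000034708, chromosome 11, 102430315 to 102437048) encodes progranulin, a secreted growth factor that is also delivered to lysosomes and processed there. It rose to 188, 186 and 144 CPM in GATA6KO, against 80.1, 71.7 and 77.4 CPM in Control. The groups did not overlap, and GATA6KO stood at 226% of Control (log2 fold change 1.17, SE 0.13, edgeR adjusted p = 0.00374). Grn, like Ctsc, was called in each of the 14 alternative analyses.

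Psap, the precursor of the saposins and a binding partner of progranulin, measured 371, 332 and 276 CPM in GATA6KO and 255, 239 and 250 CPM in Control. Each GATA6KO library was above each Control library, and the log2 fold change of 0.40 missed the threshold (SE 0.12, edgeR adjusted p = 0.0815). DESeq2 gave an adjusted p of 0.0269 and scaling to the library total alone an edgeR adjusted p of 0.0498. Ppt1, which removes palmitate from proteins, and Asah1, acid ceramidase, had log2 fold changes of 0.16 and 0.10. For Npc2, the soluble cholesterol carrier, and Lipa, acid lipase, the values were 0.02 and -0.05. Smpd1, acid sphingomyelinase, measured 12.6, 13.3 and 6.04 CPM in GATA6KO and 7.36, 6.97 and 8.54 CPM in Control, with replicate 3 apart from the other GATA6KO libraries.

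Of the 3 autophagy genes, Sqstm1 (ENSMUSG00000015837, chromosome 11, 50199366 to 50210827) fell and was the 1 called (33.3%, beside 12.4% of all genes tested). It encodes p62, a receptor that carries ubiquitinated cargo into autophagosomes. The level fell to 298, 248 and 159 CPM in GATA6KO, against 411, 434 and 485 CPM in Control. No GATA6KO library reached the Control range (log2 fold change -0.91, SE 0.22, edgeR adjusted p = 0.0440). It did not stay called when Control replicate 1, 2 or 3 was left out (edgeR adjusted p = 0.119, 0.130 and 0.162), nor when GATA6KO replicate 2 was (edgeR adjusted p = 0.0636). Map1lc3b and Gabarapl1, which coat autophagosome membranes, were not called, at log2 fold changes of 0.16 and 0.41 (edgeR adjusted p = 0.433 and 0.228).

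Neither tested factor of the family that drives lysosomal genes passed the threshold. Tfeb measured 16.9, 13.4 and 14.3 CPM in GATA6KO and 19.8, 20.1 and 18.01 CPM in Control (log2 fold change -0.38, SE 0.14, edgeR adjusted p = 0.116). Tfe3 measured 41.7, 34.6 and 32.2 CPM in GATA6KO and 44.6, 44.5 and 48.2 CPM in Control (log2 fold change -0.34, SE 0.12, edgeR adjusted p = 0.112). Both had lower values in every GATA6KO library than in any Control library, as had 20.5% of all genes tested. By edgeR the unadjusted p was under 0.05 for both, beside 31.7% of all genes tested. DESeq2 and limma-voom called 0 of the 2, beside 22% and 12.1% of all genes tested. Mitf, the melanocyte factor, had 6, 9 and 8 counts in GATA6KO and 4, 2 and 6 in Control, too few to test. Of 6 melanocyte markers, 2 were at 0 in all libraries, and the 6 summed to 0.361 to 1.304 CPM in GATA6KO and 0.693 to 1.05 CPM in Control. Transcript levels do not report where these factors sit in the cell.

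**Figure D4:**
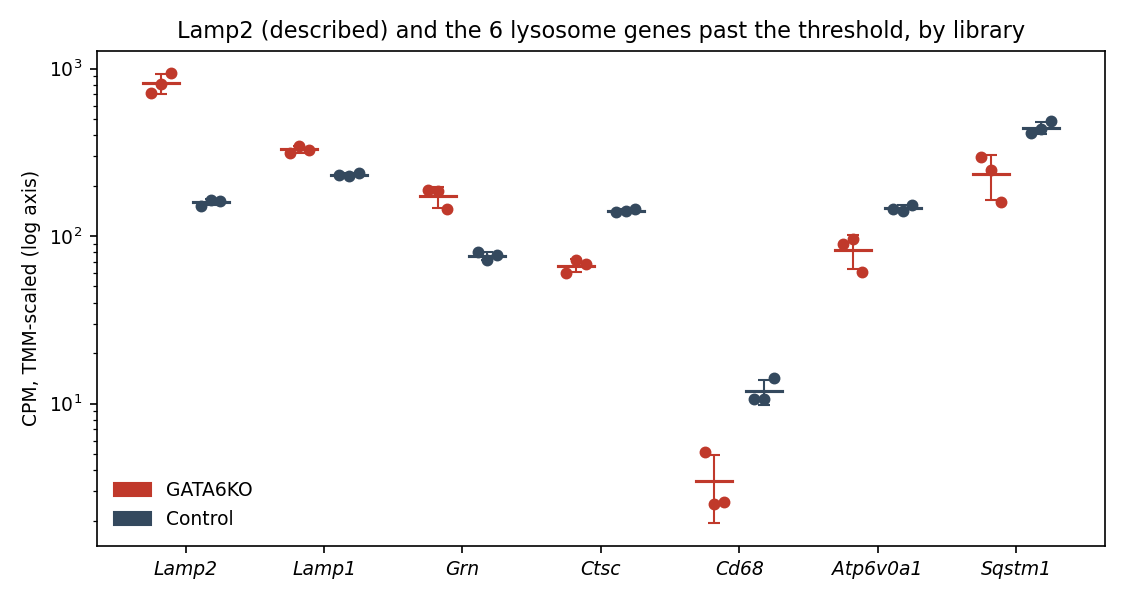
Scaled CPM on a log axis of Lamp2, shown as a description, and of the 6 lysosomal genes past the threshold, with a point per library, the mean as a line and bars of 1 SD (n = 3); GATA6KO is red and Control dark blue. Lamp2, Lamp1 and Grn are higher, and Ctsc, Cd68, Atp6v0a1 and Sqstm1 lower, in all 3 GATA6KO libraries than in any Control library.

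Annotated genes on the opposite strand overlap Lamp1 (Grtp1), Grn (Fam171a2), Sqstm1 (Mrnip) and Ctsc (a noncoding RNA), and a microRNA lies within Atp6v0a1. Lamp2 and Cd68 overlap no other annotated gene. The libraries marked strand, but the sources used here do not give whether the counting used it, so reads of these partners cannot be told apart with certainty.

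Another 176 genes of the same organelle and its regulation, grouped in 7 lists, were also examined. Of 161 tested, 13 rose and 6 fell (11.8%, beside 12.4% of all genes tested), with a median log2 fold change of 0.01. The called genes Atp6v0d2 and Aga reached the filter's count minimum in libraries of 1 group alone. Among the 158 genes that reached it in at least 1 library of each group, 17 were called (10.8%, beside 11.2% of such genes in the whole table). Of the 19, Hyal1 and Flcn stayed past the threshold whichever library was left out. For the other 17 the call was lost when at least 1 of the Control libraries was left out, with edgeR adjusted p reaching 0.175 (Atp6ap2). Abcd4 was also lost without GATA6KO replicate 2, and Slc29a3, Sort1, Fnip1 and Ulk1 without GATA6KO replicate 3. Most calls of the whole table were likewise lost without a Control library, as given above for Lamp1.

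Among 28 tested hydrolases outside the first list, 3 rose and 3 fell (10.7% each way, beside 6.92% higher and 5.47% lower among all genes tested). Of the 3 that fell, Aga passed the filter on low counts through Control libraries alone. Its call is therefore no support for a change of the hydrolases. Hyal1, a hyaluronidase, fell to 12.8, 9.28 and 8.54 CPM in GATA6KO, against 32.5, 31.2 and 37.4 CPM in Control (log2 fold change -1.72, SE 0.18, edgeR adjusted p = 0.00377). Acp5, an acid phosphatase best known from osteoclasts, fell by 1.69 on the log2 scale (adjusted p = 0.0154). Ctso, a cysteine cathepsin, and Gm2a, the activator protein of ganglioside breakdown, rose by 1.09 and 0.83 on that scale (edgeR adjusted p = 0.0287 and 0.00754). Gm2a stood at 44.6, 43.1 and 37.4 CPM in GATA6KO and 24.8, 21.7 and 23.6 CPM in Control. Its groups were well apart.

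Of 13 further V-ATPase genes tested, 2 were called, both higher (15.4%, beside 6.92% of all genes tested called higher). In either direction the share of all genes tested was 12.4%. Atp6ap2, an accessory subunit also called the prorenin receptor, measured 148, 139 and 173 CPM in GATA6KO and 115, 112 and 107 CPM in Control (log2 fold change 0.46, edgeR adjusted p = 0.0353). The other, Atp6v0d2, was below the level set for naming and was picked out after its values were seen. It passed the filter on low counts through GATA6KO libraries alone, so its call is no support for a change of the pump. It stood at 0.836, 3.11 and 0.901 CPM in GATA6KO and 0.175, 0.139 and 0.10 CPM in Control. Of 27 further membrane proteins, 2 rose and 1 fell (11.1% called, beside 12.4% of all genes tested). They were Laptm4a (log2 fold change 0.59, edgeR adjusted p = 0.0202), the nucleoside transporter Slc29a3 (0.64, edgeR adjusted p = 0.0329) and the cobalamin transporter Abcd4 (-0.75, edgeR adjusted p = 0.0446).

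Delivery to lysosomes was represented by 30 genes, of which Sort1 rose (3.33% called, beside 12.4% of all genes tested). Sort1 encodes sortilin, a sorting receptor that binds progranulin and prosaposin. It measured 110, 46.2 and 95.9 CPM in GATA6KO and 34.7, 31.1 and 33.9 CPM in Control (log2 fold change 1.34, SE 0.30, edgeR adjusted p = 0.0354). GATA6KO replicate 2 lay nearest to Control, and limma-voom called none of the 30.

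Among 20 tested genes of the mTORC1 pathway, which restrains TFEB and TFE3, 2 were called, both lower (10%, beside 5.47% of all genes tested). In either direction the share of all genes tested was 12.4%. The 2 were Flcn, folliculin, and its binding partner Fnip1, which act together on the Rag GTPases. Flcn measured 18.1, 15.8 and 14.1 CPM in GATA6KO and 34.2, 31.5 and 34.7 CPM in Control (log2 fold change -1.07, SE 0.13, edgeR adjusted p = 0.00510). The groups were far apart. Fnip1 measured 37.8, 29.7 and 34.1 CPM in GATA6KO and 47.1, 47.4 and 51.6 CPM in Control (log2 fold change -0.52, edgeR adjusted p = 0.0334).

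Of 36 further autophagy genes, all tested, 5 were called, all higher (13.9%, beside 6.92% of all genes tested called higher). In either direction the share of all genes tested was 12.4%. Optn, a cargo receptor like p62, rose to 94.3, 79.6 and 57.0 CPM in GATA6KO, against 35.2, 33.9 and 36.0 CPM in Control (log2 fold change 1.13, SE 0.18, edgeR adjusted p = 0.0130). Wipi1, a phosphoinositide-binding protein of forming autophagosomes, rose by 1.11 on the log2 scale (edgeR adjusted p = 0.0259). Stx17, the autophagosomal syntaxin needed for fusion with lysosomes, rose by 0.65, and Atg2a, a lipid transfer protein, by 0.57 (edgeR adjusted p = 0.0282 and 0.0239). The fifth was the kinase Ulk1 (edgeR adjusted p = 0.0412), outside the rule for names. The 7 genes of chaperone-mediated autophagy besides Lamp2 gave 0 calls by edgeR, DESeq2 or limma-voom, beside 12.4%, 22% and 12.1% of all genes tested. By edgeR, 0 had an unadjusted p under 0.05, beside 31.7% of all genes tested. In 2 of the 7, every GATA6KO library lay below every Control library (28.6%, beside 20.5% of all genes tested). A list of 7 genes is too short to read 0 calls as a lack of change. Hspa8, the chaperone of that pathway, measured 3028, 3292 and 3381 CPM in GATA6KO and 3201, 3257 and 3369 CPM in Control, with overlapping groups.

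The chromosomal surroundings of Lamp2 were examined because the list's rule did not use position. Of the 47 genes 5 lie on the X chromosome: Lamp2, Gla, Ids, Tfe3 and Atp6ap1. None of the 4 others passed the threshold by edgeR's test, with log2 fold changes from -0.34 to 0.52. DESeq2 and limma-voom called none of them either. By edgeR, 2 of the 4 (Ids and Tfe3) had an unadjusted p under 0.05, beside 31.7% of all genes tested. Within 1 Mb of the start of Lamp2, 66 annotated genes were in the table and 7 were tested, Lamp2 included. The nearest tested gene on one side, Cul4b, a ubiquitin ligase scaffold, measured 72.7, 89.6 and 89.6 CPM in GATA6KO and 68.3, 70.5 and 71.1 CPM in Control (log2 fold change 0.26, edgeR adjusted p = 0.147). On the other side Zbtb33, a zinc-finger protein that binds methylated DNA, rose to 60.2, 63.0 and 68.1 CPM in GATA6KO, against 39.1, 41.0 and 38.1 CPM in Control (log2 fold change 0.70, SE 0.09, edgeR adjusted p = 0.00637). It was the 1 called of the 6 tested neighbours, beside 12.4% of all genes tested. Of 400 X-linked genes tested, 51 stood past the threshold, 29 higher and 22 lower, beside 12.4% of all genes tested. Lamp2, a description only, is included in these counts. The median log2 fold change of the 6 neighbours was 0.25, and that of 295 X-linked genes with at least 5 CPM in Control was 0.06.

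**Figure D5:**
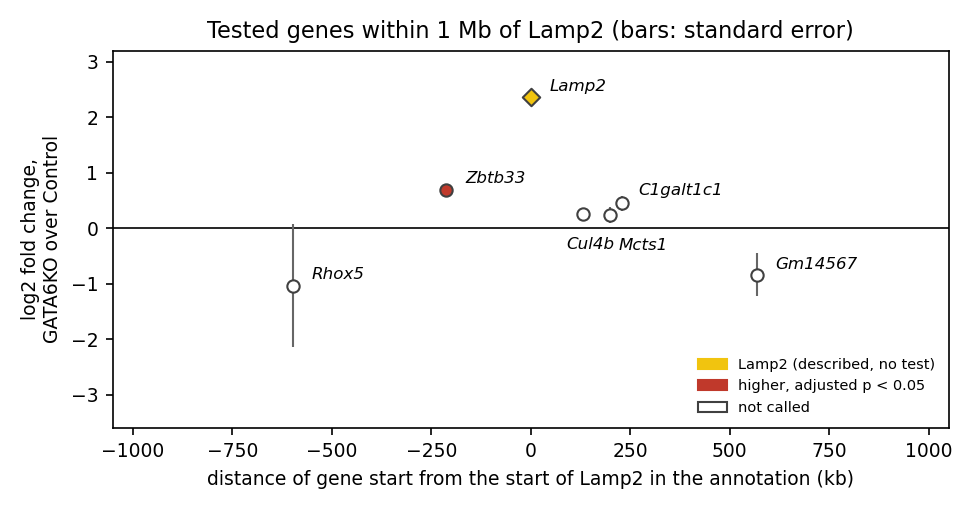
Log2 fold change (GATA6KO over Control, bars of 1 standard error) of the 7 tested genes within 1 Mb of Lamp2, against the distance in kilobases between annotated starts (lower coordinates). Lamp2, the yellow diamond, stands at 2.36, Zbtb33 (red) at 0.70 and the others between -1.03 and 0.45.

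Promoter windows of RefSeq (build GRCm38.p6, 250 bases before to 50 after a transcript start) were found for 41 of the 47 genes, and for none of Npc1, Ctsb, Ctsh, Asah1, Atp6v1b2 and Atp6v1h. CACGTG, which reads the same on both strands, was in 12 of the 41 genes (29.3%), beside 11.5% of 10292 tested genes with a window. The longer TCACGTGA, also a palindrome and containing the first, was in 6 of the 41 (14.6%), beside 2.11% of tested genes. These 6 were Mcoln1, Ctsa, Ctsd, Gla, Atp6v0d1 and Atp6v1a, and none of them was called by edgeR. Of Lamp2 and the 6 genes called, Lamp1 alone held CACGTG, 4 times. The window of Lamp2 had none of these forms. AGATAA or its reverse complement, letters found in sites of GATA factors, was in 4 of the 41 (Npc2, Ctsz, Gla and Psap; 9.76%), beside 7.94% of tested genes, and not in the window of Lamp2. A match is a string of letters in these bases and shows no binding. The sequences below are the 250 bases before the start, 5′ to 3′ on the gene's strand, with CACGTG in capitals. They set Lamp2 and the 2 genes called higher, Lamp1 and Grn, beside Ctsd, which held TCACGTGA and was not called. Their coordinates are chrX:38456461-38456710 (minus strand) for Lamp2, chr8:13158911-13159160 (plus) for Lamp1, chr11:102430257-102430506 (plus) for Grn and chr7:142387828-142388077 (minus) for Ctsd.
Lamp2: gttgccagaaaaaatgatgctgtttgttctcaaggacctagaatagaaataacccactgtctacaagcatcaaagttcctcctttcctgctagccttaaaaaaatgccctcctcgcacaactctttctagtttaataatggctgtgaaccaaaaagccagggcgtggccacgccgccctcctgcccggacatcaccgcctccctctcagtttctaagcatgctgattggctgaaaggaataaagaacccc
Lamp1: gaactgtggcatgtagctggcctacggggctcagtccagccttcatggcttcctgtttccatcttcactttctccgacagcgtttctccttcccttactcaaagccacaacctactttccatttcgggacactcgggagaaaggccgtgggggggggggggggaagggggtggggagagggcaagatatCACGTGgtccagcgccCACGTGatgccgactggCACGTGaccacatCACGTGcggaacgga
Grn: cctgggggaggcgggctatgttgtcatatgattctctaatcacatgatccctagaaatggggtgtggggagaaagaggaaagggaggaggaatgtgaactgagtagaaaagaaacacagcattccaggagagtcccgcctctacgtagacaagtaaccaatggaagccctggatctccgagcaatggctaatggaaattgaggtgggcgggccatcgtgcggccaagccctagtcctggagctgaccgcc
Ctsd: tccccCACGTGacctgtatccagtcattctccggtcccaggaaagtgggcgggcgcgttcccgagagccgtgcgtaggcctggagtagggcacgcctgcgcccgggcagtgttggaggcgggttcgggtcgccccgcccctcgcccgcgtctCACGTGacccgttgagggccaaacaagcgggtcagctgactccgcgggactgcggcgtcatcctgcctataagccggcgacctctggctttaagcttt

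GC content of these 250 bases was 47.6% for Lamp2 and 53.6% for Grn, and it was 59.6% for Lamp1 and 67.2% for Ctsd. The CG dinucleotide occurred 6 times in the Lamp2 stretch, 8 times in that of Grn, 14 times in that of Lamp1 and 27 times in that of Ctsd.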

How the data were processed

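Poly(A)-selected RNA was sequenced from strand-marking libraries, per the labels' protocols. The authors deposited estimated counts (expected counts) per gene in whole numbers, not scaled between libraries; the tool Salmon 1.3.0 and the build mm10 appear, per the submitters' processing notes, with no step attached. Annotation, gene summing, rounding and strand setting: not given in the sources used here. Of 54418 identifiers, 54166 matched GENCODE M21 by script. Total counts ran from 22973245 to 31328415, and no 2 libraries were alike.

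Genes were kept by edgeR's filterByExpr (the equivalent of 10 counts in 3 or more libraries, and 15 summed over all), scaled by TMM and tested by the quasi-likelihood test with robust estimation and no block, adjusted by Benjamini-Hochberg over all 14714 genes. SE is the log2 fold change divided by the square root of F. CPM is per 1000000 counts after TMM scaling. Versions were DESeq2 1.42.0, edgeR 4.0.16 and limma 3.58.1 under R 4.3.3. On simulated counts for this comparison (14714 genes, 50 changed at each fold) the test recovered 4%, 38%, 98% and 100% of genes changed by folds of 1.5, 2, 4 and 8. Every simulated gene had the same biological coefficient of variation (0.245) in both groups. These libraries spread more in GATA6KO than in Control, so the shares need not hold for them.

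Members and lists were chosen with earlier results of these data known. Named were all called members, the most counted member of each role, Tfeb, Tfe3 and Mitf, up to 4 called genes with at least 5 CPM in the higher group per related list, and neighbours of Lamp2. Other settings were other scalings, filters and tests, a replicate block, and each library left out.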

Additional observations from a re-analysis of the deposited data

How the results depend on the processing

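The log2 fold change of Lamp2 ran from 2.25 to 2.45 over all 14 alternatives, and the median of the 43 other lysosomal genes from -0.06 to 0.05. Of those 43, 2 were called higher and 4 lower. With scaling to the library total alone, and likewise with DESeq2, 4 were higher; with a replicate block 1 was higher and 2 were lower. Leaving out 1 library gave 1 to 6 higher and 1 to 8 lower. Related genes called were 13 higher and 6 lower, with 21 and 12 by DESeq2, 5 higher with the replicate block, and 0 to 24 higher and 2 to 24 lower with 1 library left out. Over all genes, 1018 were higher and 805 lower, with 1709 and 1529 by DESeq2, 480 and 347 with the replicate block, and 202 to 2235 and 130 to 2125 with 1 library left out. Over all genes the fewest calls came without a Control library and the most without GATA6KO replicate 1; the cause was not tested. Same-numbered libraries did not deviate together (correlations of -0.01, 0.07 and -0.09). Deviations from the means of 3 libraries cannot decide whether the numbers pair them, and the labels do not say. In the simulation, 4% of 1.5-fold changes were recovered. It gave every gene the same spread in both groups, unlike these libraries, so that share does not measure the power here. With 3 libraries a group, small changes of single genes may be missed.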
